A study of Homo sapiens with 4 samples.

Results

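Mitochondrial ribosomal protein genes were followed from a cell lysate into an immunoprecipitate (IP) of the fragile X protein FMRP. The members are the probe sets whose only gene symbol in the platform annotation is MRPL or MRPS with a number, with or without a final A or B, or DAP3. They number 140 of the 54675 probe sets on the array and belong to 75 genes, 48 with MRPL symbols (large subunit) and 27 with MRPS symbols or DAP3 (small subunit). All 75 genes passed the filter on low signal and were tested among 13156 genes, each represented by its brightest probe set. Of the 140 probe sets, 126 passed that filter and 14 did not.

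All 4 samples came from a Flp-In T-REx HEK293 stable line, a human embryonic kidney cell line whose inserted transgene responds to doxycycline, here 1 µg/ml for 16 h. The transgene encoded FMRP with FLAG and HA tags, so the lysate controls made the tagged protein too. The lysate group is total RNA of the NP-40 supernatant before the IP (2 arrays), and the IP group is RNA recovered with anti-FLAG M2 antibody on magnetic beads after washes at 300 mM KCl (2 arrays). Whether the line was 1 clone and whether replicates were separate cultures is not stated in the labels, so p-values measure only the spread between these samples, which may be technical. No mock IP is among the samples, and RNA recovered without FMRP was not measured.

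The signals, deposited as log2 values, had array medians between 4.67 and 4.71, so every change is read against the bulk of probe sets on the arrays. The arrays carry no detection calls, and their number limits the precision. Of 9 genes chosen as HEK293 markers, 8 were measured and 7 lay above 4.70, the median of all values, on every array; NEFM lay below it on all 4. Of 11 genes chosen as markers of other cell types, 10 were measured, 4 were above that median on every array and 5 below it on every array, with lysate signals from 2.52 to 7.20 and IP signals from 2.58 to 7.52. Of the 5 that passed the level filter, 4 were higher in the IP and none lower (limma), with changes of 0.32 for COL1A1, 0.40 for SFTPC, 0.53 for PECAM1 and 0.56 for GFAP. KRT8 (0.38) and KRT18 (0.44) of the HEK293 markers were higher and INA (-0.55) was lower. Their part in the members' changes was not tested. FMR1, which encodes the precipitated protein, stood at 9.64 and 9.51 in the lysates and at 9.28 and 9.03 in the IPs, a change of -0.42 (limma adjusted p = 0.0261) that did not pass when lysate replicate 1, lysate replicate 2 or IP replicate 2 was omitted.

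The mitochondrial ribosome translates the few messenger RNAs of the mitochondrial genome, which encode membrane subunits of the respiratory chain and of ATP synthase. Its ribosomal RNAs come from mitochondrial DNA, while its proteins are encoded in the nucleus, made in the cytosol and imported. Part of these proteins have counterparts in bacterial ribosomes, and others exist only in mitochondrial ribosomes. FMRP is an RNA-binding protein that associates with ribosomes and many cytosolic mRNAs, and its loss causes fragile X syndrome.

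A feature of the members that their choice did not use is the sequence before the gene start. Sites for nuclear regulators of mitochondrial genes are known there. RefSeq promoters (GRCh38.p14, 250 bases before to 50 after the start) were at hand for 67 of the 75 genes. The letters CCGGAAG, an ETS core, stood on either strand of 27 of them (40.3%), against 10.7% of all 27305 promoters in the table. AAGATGGCG, a YY1 core, stood in 12 (17.9%) against 1.85%, and an NRF1 core in 8 (11.9%) against 6.3%. Any of these cores stood in 40 of the 67 (59.7%), against 17.0% of all promoters in the table, and the other member promoters held none. No member promoter had matches of different motifs that overlapped. Among members called lower in the IP the ETS core stood in 21 of 51 promoters, and among the others in 6 of 16. The YY1 core stood in 10 of 51 and 2 of 16, and the NRF1 core in 7 of 51 and 1 of 16; these shares were not tested. The 150 bases before the start are shown for the member with the largest fall among those with each motif there, and for MRPS15, which had the largest rise and none of these motifs; matches are in capitals. They lie at chr2:27771569-27771718, plus strand (MRPL33), chr13:21176508-21176657, plus strand (MRPL57), chr5:1799838-1799987, minus strand (MRPL36) and chr1:36464385-36464534, minus strand (MRPS15). A match describes letters and not a bound site.
MRPL33: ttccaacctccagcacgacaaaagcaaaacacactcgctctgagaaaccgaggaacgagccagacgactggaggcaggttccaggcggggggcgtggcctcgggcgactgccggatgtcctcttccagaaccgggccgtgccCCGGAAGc
MRPL57: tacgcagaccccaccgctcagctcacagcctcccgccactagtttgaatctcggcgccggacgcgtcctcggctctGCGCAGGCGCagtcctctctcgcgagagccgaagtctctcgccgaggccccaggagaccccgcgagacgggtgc
MRPL36: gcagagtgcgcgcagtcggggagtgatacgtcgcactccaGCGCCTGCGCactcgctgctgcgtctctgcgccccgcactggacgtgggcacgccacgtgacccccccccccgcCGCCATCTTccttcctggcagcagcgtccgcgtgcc
MRPS15: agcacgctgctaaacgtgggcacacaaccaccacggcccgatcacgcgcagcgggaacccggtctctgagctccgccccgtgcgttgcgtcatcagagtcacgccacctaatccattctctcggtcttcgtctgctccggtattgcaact
MRPL33 holds the ETS core from 2 to 8 bases before the start, and MRPL57 the NRF1 core from 65 to 74 bases before it. MRPL36 holds the YY1 core from 28 to 36 bases before the start, on the opposite strand, and an NRF1 core farther up.

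Most mitochondrial ribosomal protein mRNAs were lower in the FMRP IP than in the lysate. Of the 75 genes, 57 were lower, 2 were higher and 16 did not pass at an adjusted p of 0.05 (limma). Over all genes tested, 28.8% were lower and 35.0% were higher. The members' median change was -0.85 on the log2 scale, with quartiles of -1.41 and -0.41, against a median of 0.08 over all genes tested. A change of at least 2-fold downward passed for 34 members, where 12.8% of all genes had one, and of at least 4-fold for 7 members, where 1.94% had one. In 67 members both IP arrays lay below both lysate arrays (37.2% of all genes), in 6 both lay above (45.1%), and in 2 the groups overlapped. Each change compares RNA recovered with FMRP with lysate RNA of the same line, and so describes relative recovery in the IP. For the lysate signal itself, fewer cells holding an mRNA and less of it per cell cannot be told apart.

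**Figure D1:**
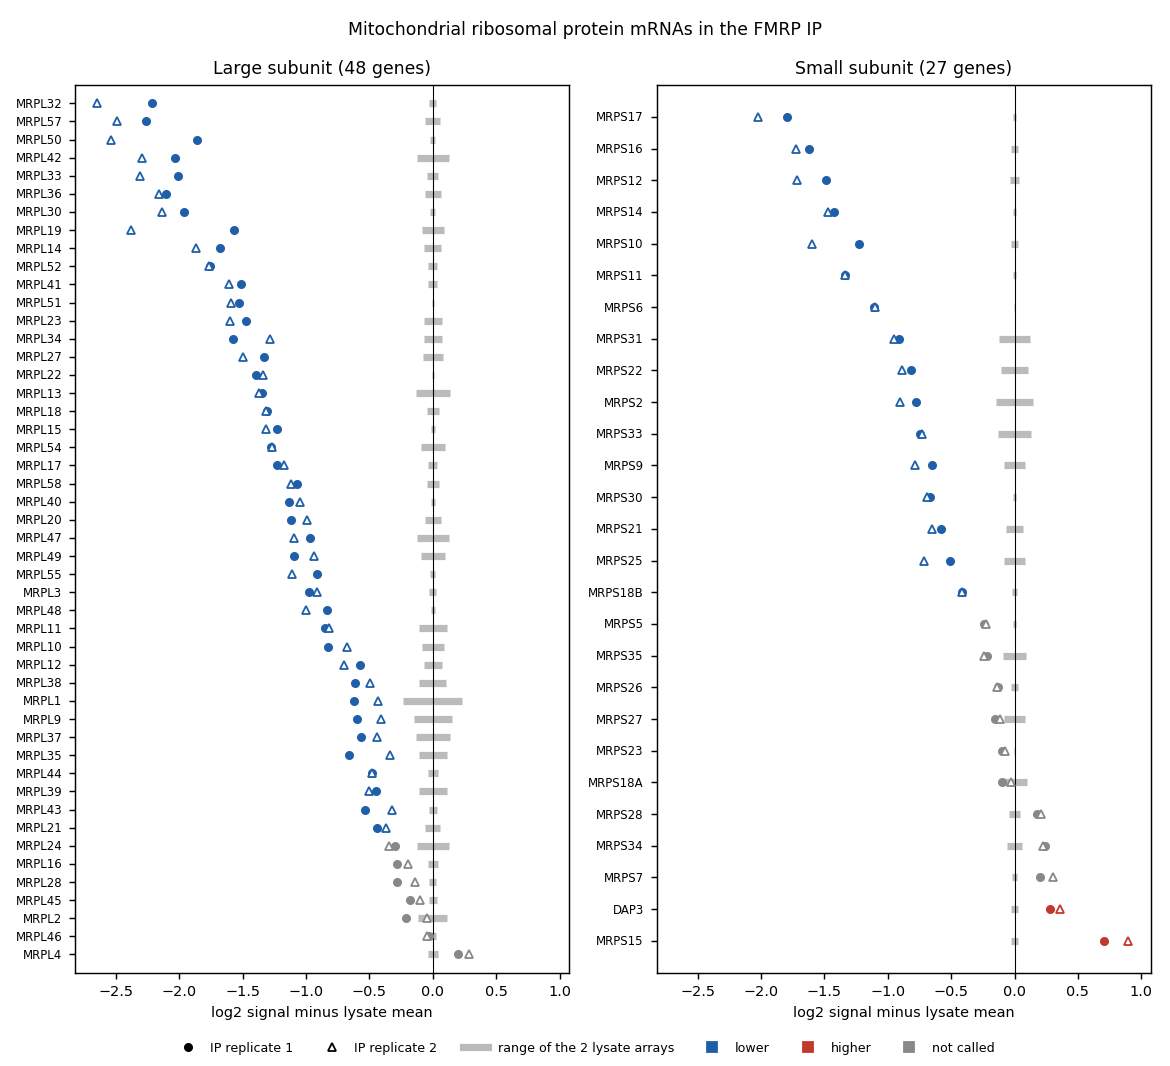
Each row is a member gene, with the log2 signal of IP replicate 1 (filled circle) and IP replicate 2 (open triangle) minus the mean of the lysate arrays, whose range is the grey bar; blue genes were lower, red higher and grey not called (limma, adjusted p at most 0.05). In 67 of the 75 rows both IP arrays lie left of the grey bar, and MRPS15 and DAP3 are the red genes at the bottom of the small subunit.

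These counts are on the deposited scale. The 18 spiked hybridization controls had a median signal 0.48 higher in the IPs than in the lysates. Subtracting each array's control median took the median of all genes from 0.08 to -0.40 and the split of all calls from 3790 lower and 4610 higher to 6385 and 2089. On that scale 69 members were lower, where 48.5% of all genes were, and none was higher, where 15.9% were; the members' median was -1.33. The distance of the members from the other genes is the same on both scales by construction, since the centring shifts every change equally. The plot of the distribution of changes shows that distance.

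**Figure D2:**
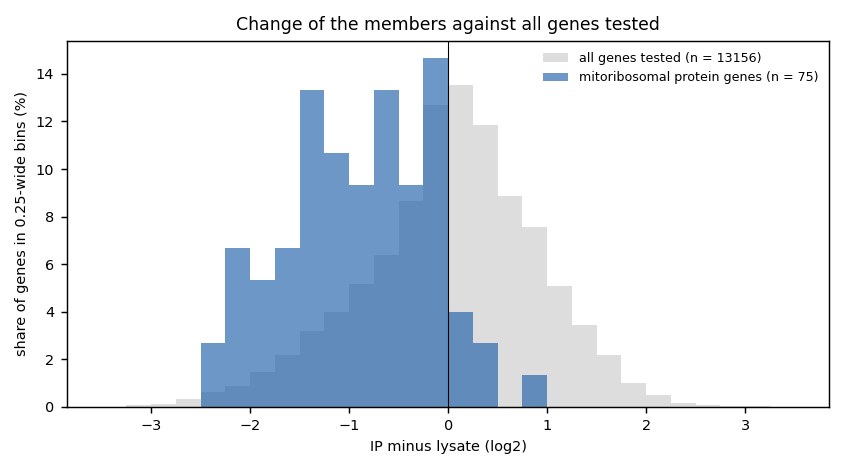
The x axis is the IP minus lysate change (log2) and the y axis the share of genes in each bin, in percent, for all 13156 genes tested (grey) and the 75 mitochondrial ribosomal protein genes (blue). Changes above 0 make up 54.3% of all genes and 8.0% of the members, while 12.0% of the members and 3.7% of all genes lie between -2 and -1.5.

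In the large subunit 41 of 48 genes were lower, where 28.8% of all genes tested were, and none was higher, where 35.0% were. The median was -1.05. The 8 largest falls were those of MRPL32, MRPL57, MRPL50, MRPL42, MRPL33, MRPL36, MRPL30 and MRPL19, all with a limma adjusted p of 2.5e-04 or lower. MRPL32, whose protein is cut by the inner membrane m-AAA protease before it joins the ribosome, gave 10.62 and 10.67 in the lysates and 8.42 and 7.996 in the IPs. MRPL57, which encodes a protein found only in mitochondrial ribosomes, gave 11.10 and 10.98 in the lysates and 8.78 and 8.55 in the IPs. The IP values of both genes lay over 2 log2 units below every lysate value, and the lysate signal was 5.40-fold (MRPL32) and 5.21-fold (MRPL57) that of the IP.

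MRPL50, which also encodes a mitochondria-specific protein, stood at 8.15 and 8.19 in the lysates and at 6.31 and 5.63 in the IPs. MRPL42, also mitochondria-specific, stood at 10.33 and 10.07 and then at 8.17 and 7.90. The changes were -2.20 for MRPL50 and -2.17 for MRPL42, and IP replicate 2 was the lower IP array in both. MRPL33, which has a bacterial counterpart, stood at 10.19 and 10.10 in the lysates and 8.13 and 7.83 in the IPs. MRPL36, the counterpart of one of the smallest bacterial ribosomal proteins, stood at 11.58 and 11.45 in the lysates and 9.41 and 9.35 in the IPs. MRPL30 stood at 10.16 and 10.20 in the lysates and 8.22 and 8.05 in the IPs. These genes were 4.48-fold, 4.39-fold and 4.13-fold higher in the lysate, and no IP value came near a lysate value. MRPL19 had the widest gap between IP arrays, at 5.99 and 5.18, after lysate values of 7.47 and 7.64 (change -1.97).

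The other 33 large subunit genes called lower had changes from -1.77 to -0.41. Next to the leaders, 5 genes lay between -1.77 and -1.54, namely MRPL14, MRPL52, MRPL41, MRPL51 and MRPL23. A further 14 lay between -1.43 and -1.01: MRPL34, MRPL27, MRPL22, MRPL13, MRPL18, MRPL15, MRPL54, MRPL17, MRPL58, MRPL40, MRPL20, MRPL47, MRPL49 and MRPL55. MRPL58 encodes a peptidyl-tRNA hydrolase that has become part of the ribosome and frees stalled chains. Then 9 lay between -0.94 and -0.50, which were MRPL3, MRPL48, MRPL11, MRPL10, MRPL12, MRPL38, MRPL1, MRPL9 and MRPL37. The last 5, from -0.50 to -0.41, were MRPL35, MRPL44, MRPL39, MRPL43 and MRPL21.

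Parts of the large subunit were described by lists. In the whole subunit 41 of 48 genes were lower, and among all genes tested 28.8% were. All 4 measured genes for proteins of the factor-binding stalk were lower (median -0.79), among them MRPL12, whose stalk protein also binds the mitochondrial RNA polymerase, at -0.64. Of genes for the central protuberance 4 of 5 were lower (median -0.92), from MRPL18 at -1.31 to MRPL46 at -0.04, which did not pass. Of genes for proteins around the exit of the nascent chain 6 of 8 were lower (median -0.76), from MRPL23 at -1.54 to MRPL45, whose protein anchors the ribosome to the inner membrane, at -0.14 and not called.

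In the small subunit 16 of 27 genes were lower, where 28.8% of all genes tested were, and 2 were higher, where 35.0% were. The other 9 did not pass, and the median was -0.62. With hybridization control centring 22 were lower, where 48.5% of all genes were, and none was higher, where 15.9% were. The 8 largest falls were those of MRPS17, MRPS16, MRPS12, MRPS14, MRPS10, MRPS11, MRPS6 and MRPS31, all with a limma adjusted p of 4.4e-04 or lower. MRPS17 gave 9.36 and 9.33 in the lysates and 7.55 and 7.32 in the IPs. MRPS16 gave 8.95 and 8.89 in the lysates and 7.30 and 7.20 in the IPs. MRPS12, which encodes a decoding centre protein, gave 11.48 and 11.55 in the lysates and 10.02 and 9.79 in the IPs. Lysate over IP ratios of these genes were 3.76-fold, 3.19-fold and 3.04-fold, and by the brightest probe set on the deposited scale no small subunit gene reached 4-fold. The other probe set of MRPS16, from 8.45 and 8.35 in the lysates to 6.82 and 5.73 in the IPs, was 4.38-fold higher in the lysates, and MRPS17 changed by -2.39 with hybridization control centring.

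MRPS14 stood at 10.36 and 10.34 in the lysates and 8.93 and 8.88 in the IPs. MRPS10 stood at 9.18 and 9.12 in the lysates and 7.92 and 7.55 in the IPs. MRPS11 stood at 9.99 and 10.00 in the lysates and at 8.66 on both IP arrays. All these have counterparts of the same number in bacteria, and their changes were -1.45, -1.41 and -1.34. MRPS6, at 9.80 and 9.81 in the lysates and 8.69 and 8.70 in the IPs, changed by -1.11 with the least spread between replicates of these 8. MRPS31, the mitochondria-specific gene among them, stood at 9.63 and 9.39 and then at 8.59 and 8.55 (change -0.93). The other 8 lower genes were MRPS22, MRPS2, MRPS33, MRPS9, MRPS30, MRPS21 and MRPS25, from -0.85 to -0.61, and MRPS18B at -0.42.

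The median change of the large subunit was 0.43 below that of the small subunit, a difference of -0.43. Taken from single IP arrays it was -0.50 (replicate 1) and -0.38 (replicate 2). Genes are not replicates of a condition, so this difference carries no test. The proteins of MRPS30 and MRPS18A sit in the large subunit in spite of their symbols. With them moved there, the difference was -0.41. Then 42 of 50 large and 15 of 25 small subunit genes were lower, where 28.8% of all genes were. Among the 41 members with probe sets named as unique to a gene (no s or x class suffix) 29 were lower (21 large and 8 small subunit genes), where 28.6% of all genes were, and the difference was -0.69. It was -0.52 without lysate replicate 2.

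By origin, 36 of 46 members with a bacterial counterpart were lower and 1 was higher (median -1.02). Of 28 mitochondria-specific members 20 were lower and 1 higher (median -0.65). Among all genes tested 28.8% were lower and 35.0% higher. Within the large subunit the medians were -1.05 for 30 genes with a counterpart and -0.97 for 18 mitochondria-specific genes, with 25 and 16 lower. Within the small subunit they were -0.78 for 16 genes with a counterpart, 11 of them lower, and -0.18 for 10 mitochondria-specific genes, 4 of them lower and DAP3 higher. With hybridization control centring 8 of these 10 were lower, where 48.5% of all genes were, and none was higher, where 15.9% were. Their median there was -0.66. In these classes MRPS30 was counted with the large subunit and MRPS18A with the small subunit, and MRPL58 was in neither class.

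MRPS15 was the clearest exception. It encodes the counterpart of the bacterial protein that binds the small subunit RNA early in assembly, and its brightest probe set gave 11.74 and 11.79 in the lysates and 12.47 and 12.66 in the IPs. Both IP arrays lay above both lysate arrays, and the IP signal was 1.74-fold higher (change 0.80 ± 0.12 SE, n = 2 against 2, limma adjusted p = 8.0e-04). Its 3 other probe sets gave 9.81 and 9.77 against 10.49 and 10.67, 5.70 and 5.68 against 6.66 and 6.91, and 6.41 and 6.73 against 8.11 and 8.58. All 4 were called higher in the test over probe sets, with changes of 0.79 to 1.78; with either lysate array omitted, not all 4 passed. Centred on the hybridization controls, MRPS15 changed by 0.32 (limma adjusted p = 0.0752), so the call rests on the scale.

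DAP3, a GTP-binding protein of the small subunit first described in cell death, was the other higher gene. It stood at 10.14 and 10.08 in the lysates and 10.39 and 10.47 in the IPs, a change of 0.32 (limma adjusted p = 0.0416). Leaving out lysate replicate 1, lysate replicate 2, IP replicate 1 or IP replicate 2 gave 0.35, 0.29, 0.36 and 0.28, and none of these passed (limma adjusted p = 0.0742 to 0.163). That rise was no larger than those of the 4 markers of other cell types called higher (0.32 to 0.56). Its other probe sets changed by 0.22 and -0.22 and were not called, and by the mean of its probe sets DAP3 did not pass (change 0.11, limma adjusted p = 0.398), and with hybridization control centring the change turned to -0.16 (limma adjusted p = 0.365).

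Changes above 0 that did not pass were those of MRPS7, MRPL4, MRPS34 and MRPS28. MRPS7, whose bacterial counterpart starts the assembly of the small subunit head, stood at 9.69 and 9.65 in the lysates and 9.87 and 9.97 in the IPs (change 0.25, 95% interval -0.02 to 0.52). MRPL4, which lines the exit tunnel, stood at 10.10 and 10.18 and then at 10.34 and 10.42 (change 0.24, -0.03 to 0.51). In all 4 genes both IP arrays lay above both lysate arrays. MRPS34, a mitochondria-specific protein, stood at 10.44 and 10.56 and then at 10.74 and 10.72 (change 0.23, -0.04 to 0.50). MRPS28 stood at 9.42 and 9.33 and then at 9.55 and 9.58 (change 0.19, -0.07 to 0.46). With hybridization control centring their changes were -0.23 (MRPS7), -0.24 (MRPL4), -0.25 (MRPS34) and -0.29 (MRPS28), and none passed there. With a trended, robust estimate of the spread, under which 35.3% of all genes were higher, MRPS7, MRPL4 and MRPS34 passed as higher (limma adjusted p = 0.0491, 0.0469 and 0.0478).

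**Figure D3:**
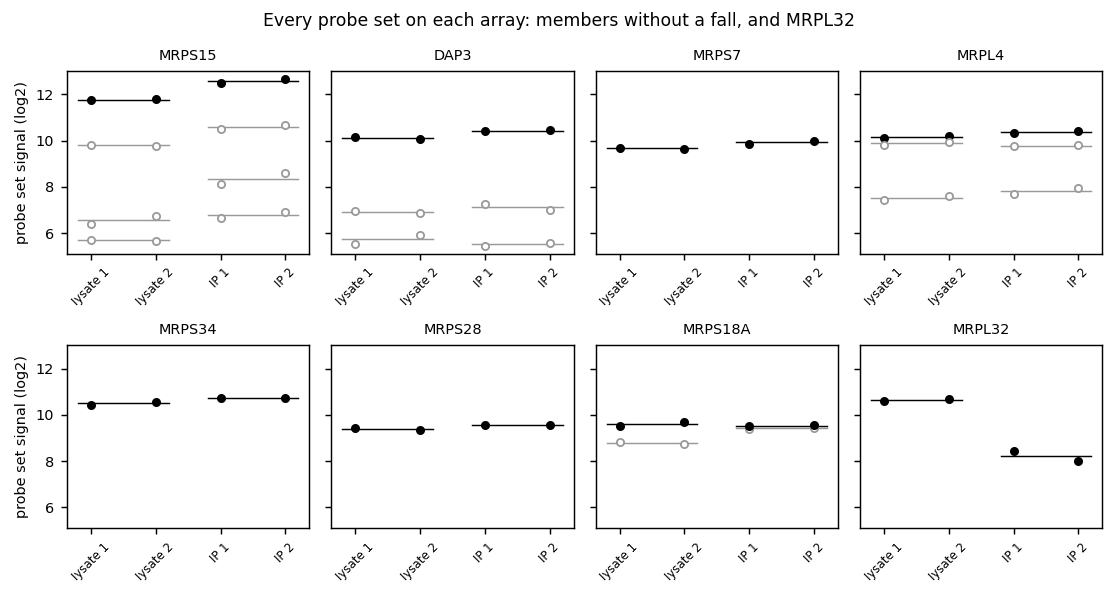
Panels show single genes and the y axis the log2 signal on each of the 4 arrays; filled points are the brightest probe set, open points the others, and lines the group means. MRPS15 is higher in the IP on all 4 of its probe sets, while MRPL32, shown for contrast, drops from 10.62 and 10.67 to 8.42 and 7.996.

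The other members not called lay between -0.32 and -0.04. They were MRPL24 (-0.32), MRPL16 (-0.24), MRPS5 (-0.23), MRPS35 (-0.23), MRPL28 (-0.21), MRPL45 (-0.14), MRPS26 (-0.13), MRPS27 (-0.13), MRPL2 (-0.13), MRPS23 (-0.09), MRPS18A (-0.06) and MRPL46 (-0.04). MRPL24 was the closest to the threshold (limma adjusted p = 0.0635) and passed as lower without lysate replicate 1, with quantile normalization, with the filter at a mean of 6 or with the trended, robust spread. With hybridization control centring all of these genes passed as lower, where 48.5% of all genes were lower. MRPL2 has a second probe set that passed as lower, from 7.65 and 8.22 in the lysates to 6.70 and 6.59 in the IPs (change -1.29, limma adjusted p = 0.0092 over all probe sets). By the mean of both, MRPL2 was lower (change -0.71, limma adjusted p = 0.0044). By the brightest probe sets, the IP and lysate arrays overlapped for MRPL2 and MRPS18A, and in the others both IP arrays lay below both lysate arrays.

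The proteins of MRPS18A, MRPS18B and MRPS18C are paralogs of a single bacterial small subunit protein, and their changes ranged widely; differences between them were not tested. MRPS18C, whose symbol ends in C and which is therefore no member, stood at 9.62 and 9.35 in the lysates and 7.88 and 7.53 in the IPs (change -1.78, limma adjusted p = 6.8e-05). MRPS18B stood at 9.88 and 9.91 and then at 9.48 on both IP arrays (change -0.42, limma adjusted p = 0.0130; -0.40 and not called without lysate replicate 2), and its other probe set changed by -0.84. MRPS18A stood at 9.51 and 9.70 and then at 9.51 and 9.57, with a change of -0.06 and a 95% interval of -0.35 to 0.23. Its other probe set went the other way, from 8.84 and 8.73 to 9.41 and 9.44, and passed as higher (change 0.64, limma adjusted p = 0.0216 over all probe sets). In the fits by gene, MRPS18A was called higher with the mean of its probe sets (0.29, limma adjusted p = 0.0438) and with unique probe sets (0.64, limma adjusted p = 0.0023). Thus MRPS18C and MRPS18B fell, and for MRPS18A the direction depends on the probe set.

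Agreement between probe sets was counted in a test over all 54613 non-control probe sets with no filter, in which 14.1% of probe sets were lower and 14.5% higher. Of the 140 member probe sets, 81 were lower, 6 were higher and 53 did not pass. The shares of all probe sets include those under the level filter, which 126 of the 140 member probe sets passed. Shares among probe sets of like signal were not counted. Of the 37 genes with at least 2 probe sets, 26 had all changes below 0, MRPS15 had all above 0, and 10 had both signs. How often probe sets agree among all genes with at least 2 was not counted, so these counts have no background. All probe sets passed as lower in 10 genes (MRPL19, MRPL30, MRPL42, MRPL50, MRPL52, MRPS10, MRPS14, MRPS16, MRPS30 and MRPS31), and in 17 genes some passed as lower and none as higher. In 2 genes some passed as higher and none as lower, and in 7 none passed. No gene had probe sets called in both directions. Among the 7 were MRPL39, MRPL44 and DAP3, called in the fit by gene and not here (limma adjusted p = 0.0700, 0.0522 and 0.157 for the brightest probe sets). The brightest probe sets of MRPL1, MRPL9, MRPL21, MRPL35, MRPL37, MRPL43 and MRPS18B, lower in the fit by gene, did not pass here. Without lysate replicate 1 or without lysate replicate 2 the genes with every probe set called lower numbered 5.

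MRPL30 had the most probe sets along with MRPL41, and all 5 of MRPL30 passed as lower, with changes from -2.76 to -0.63. Of the 5 of MRPL41 only 3 passed as lower, and the changes ran from -1.56 to -0.36. All 3 of MRPL42 passed, from -2.49 to -1.80, and all 3 of MRPL50, from -3.20 to -1.01. In MRPS10 the 3 probe sets agreed closely, from -1.64 to -1.41. MRPL57 was less even: its brightest probe set and 2 others lay between -2.38 and -1.86, while the last, at -0.40, was not called.

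In 8 of the 10 genes with both signs the brightest probe set was below 0. These genes hold 13 probe sets with changes above 0, of which 7 had a mean signal under 6, 2 passed as higher and 11 did not pass. The higher ones belong to MRPS18A and to MRPS26, whose dim probe set stood at 5.35 and 5.28 in the lysates and 5.79 and 5.98 in the IPs (change 0.57). For MRPL23, MRPL20 and MRPL55 the probe sets above 0 changed by 0.17, 0.24 and 0.08 and were not called, beside brightest probe sets at -1.54, -1.06 and -1.01. MRPL38, MRPS5 and MRPS27 were also split, as were MRPL4 and DAP3. By level, 9 of 14 member probe sets under the filter were not called, against 30 of 87 with a mean of 8 or more.

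**Figure D4:**
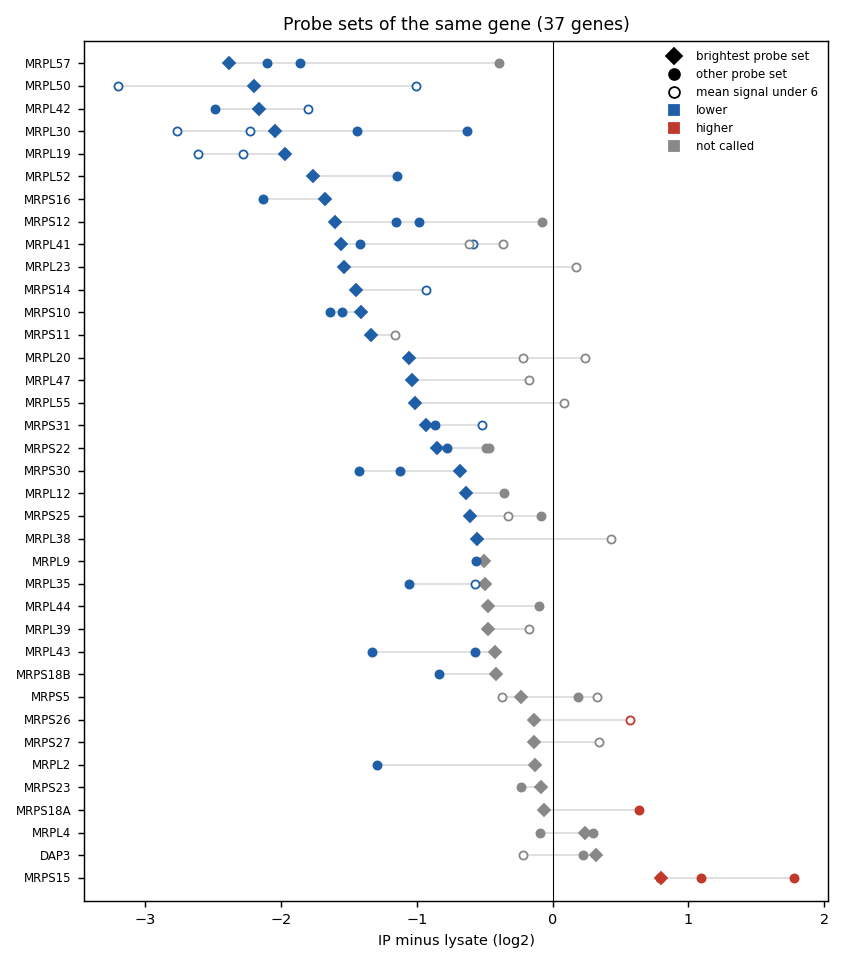
Rows are the 37 genes with at least 2 probe sets, and the x axis is the IP minus lysate change (log2) of each; diamonds are the brightest probe set of a gene, circles the others, open symbols have a mean signal under 6, and colours give the call over all probe sets. In 10 rows the symbols lie on both sides of 0, and MRPS15, at the bottom, is the row whose 4 symbols, 2 of them overlapping, are all red.

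Across the 75 genes, Pearson's r between lysate mean and change was -0.07 and Spearman's rho -0.15, and over all 13156 genes they were -0.23 and -0.20, as descriptions over genes that share the same 4 arrays. The members were bright, with lysate means from 7.56 to 11.76 (median 9.90, against 7.65 over all genes tested). The change was -0.83 at the median on IP replicate 1 and -0.90 on IP replicate 2, and IP replicate 2 was the lower IP array for 42 of 75 members and for 6381 of all 13156 genes. The median gap between replicates was 0.09 in both groups, and the widest were 0.47 between lysates and 0.82 between IPs.

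Of the 57 lower calls, 49 held with any array left out. Without lysate replicate 1, MRPL1 (-0.29), MRPL35, MRPL39 and MRPL43 did not pass. Without lysate replicate 2, MRPL9 (-0.35), MRPL37, MRPL43, MRPS18B and MRPL21 did not pass. Without IP replicate 1, MRPL1, MRPL9, MRPL35, MRPL43 and MRPL21 did not pass. These 8 genes had changes between -0.53 and -0.41 with all arrays.

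The counts read against all genes as follows. The share of all genes called lower was 29.3% with quantile normalization, 28.1% with median centring and 29.5% with the mean of a gene's probe sets, where 58, 57 and 57 members were lower. It was 18.3% with no level filter (52 members) and 33.6% with the filter at a mean of 6 (58 members). It was 29.4% with the replicate block (57 members) and 29.4% with the trended, robust spread (58 members). At an adjusted p of 0.01 (limma) it was 23.8%, and 49 members were lower. With 1 array left out it was 25.8% and 25.7% without lysate replicates 1 and 2 (54 and 52 members), and 27.5% and 26.7% without IP replicates 1 and 2 (52 and 57 members). The shares called higher in those 4 fits were 30.4%, 31.3%, 33.8% and 31.7%, with 1 member higher in each. In either direction, 63.8% of all genes were called with all arrays. Higher calls made up 35.0%, 36.0%, 22.5%, 41.4%, 34.4%, 33.7%, 35.9% and 28.0% of all genes with quantile normalization, median centring, no filter, the filter at 6, the mean of probe sets, unique probe sets, the block and the 0.01 threshold. Members called higher in those fits numbered 2, 2, 1, 2, 2, 2, 2 and 1. They were MRPS15 alone where 1 was called, MRPS15 and MRPS18A with the mean of probe sets and with unique probe sets, and MRPS15 and DAP3 in the rest of these fits.

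Other mitochondrial ribosomal proteins were left outside by their names or annotation. PTCD3, a pentatricopeptide repeat protein of the small subunit, gave 9.66 and 9.70 in the lysates and 9.74 and 9.71 in the IPs (change 0.05), while 2 of its 3 other probe sets passed as higher at 0.65 and 0.56. GADD45GIP1 changed by -0.41 (limma adjusted p = 0.0175) and CHCHD1 by -0.18, which did not pass. The fall of GADD45GIP1 passed in the fit by gene but not in the test over all probe sets (limma adjusted p = 0.0910). Its other probe sets changed by 0.07 and 0.12 and were not called. Probe sets that carry several symbols are not settled for 1 gene: that of MRPS24 and the readthrough gene URGCP-MRPS24 changed by -1.48, that of MRPL53 and CCDC142 by -1.05, and that of MRPL51 and SPTLC1 by -0.94.

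Genes for factors that use or build this ribosome were counted in the same way. Of 15 mitochondrial translation factor genes tested, 5 were lower, 6 were higher and the median was 0.17. Over all genes tested, 28.8% were lower and 35.0% higher. Under hybridization control centring 1 was higher and 7 were lower, with a median of -0.30. On that scale 48.5% of all genes were lower and 15.9% higher, with a median of -0.40. LRPPRC, which stabilizes mitochondrial mRNAs, stood at 9.72 and 9.61 in the lysates and 10.65 and 10.56 in the IPs (change 0.94), while its partner SLIRP stood at 11.71 and 11.57 and then at 10.47 and 10.11 (change -1.35). GUF1, a mitochondrial translation GTPase, changed by -1.24. The elongation factor gene TUFM (0.80), the translational activator gene TACO1 (0.74), MTRFR (0.59), the initiation factor gene MTIF3 (0.45) and the elongation factor gene GFM1 (0.44) were the other higher genes. MTIF3 and GFM1 turned to -0.02 and -0.04 with hybridization control centring. GFM1 lost its call when either lysate or IP replicate 1 was omitted, and MTIF3 when lysate replicate 2 or IP replicate 2 was.

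Of 23 genes for ribosome assembly and ribosomal RNA modification, 5 were lower, 12 were higher and the median was 0.45. The shares of all genes were the same 28.8% and 35.0%. Under hybridization control centring both directions counted 7, where 48.5% of all genes were lower and 15.9% higher. The list's median there was -0.03. DHX30, a helicase needed for ribosome assembly, stood at 9.64 and 9.81 in the lysates and 11.19 on both IP arrays (change 1.47), and was not called with the mean of its probe sets (0.20). MTERF4 and MTERF3 changed by 1.26 and 1.24. The ribosomal RNA methyltransferase gene MRM3 (1.18), the pseudouridine synthase family gene RPUSD4 (1.16), FASTKD2 (1.14), the helicase gene DDX28 (0.89), the GTPase genes MTG2 (0.85), NOA1 (0.63) and MTG1 (0.45), RCC1L (0.83) and the ribosomal RNA dimethyltransferase gene TFB1M (0.79) were the other higher genes. The lower ones were YBEY (-0.96), MPV17L2 (-0.92), MALSU1 (-0.77), TRMT61B (-0.70) and NGRN (-0.48). MTG1 turned to -0.03 with hybridization control centring and did not pass without IP replicate 2. No test compared these lists with the ribosomal proteins.

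**Figure D5:**
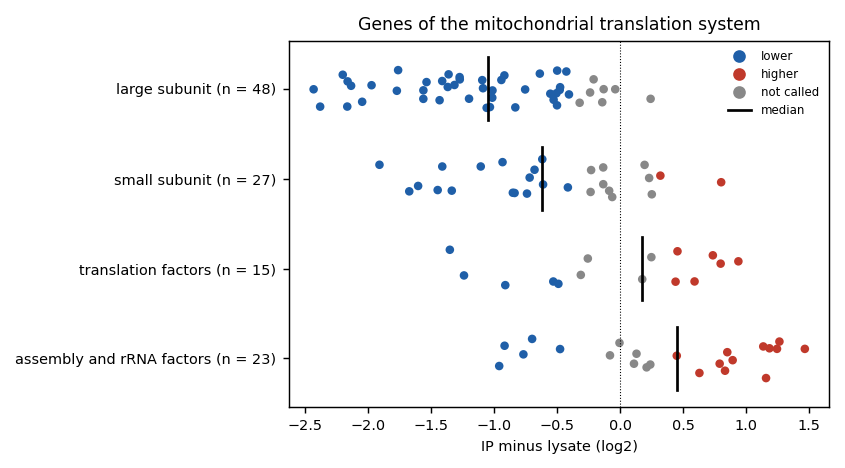
Points are genes, the x axis is the IP minus lysate change (log2) and black bars are medians, for the large and small subunit and for the 2 lists of factors; vertical position within a row has no meaning. The medians are -1.05, -0.62, 0.17 and 0.45 from top to bottom.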

How the data were processed

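Per the labels' protocols, total or immunoprecipitated RNA was labelled with biotin (2 µg per array) and hybridized to Affymetrix human arrays, 1 array per sample. The deposited values are log2 signals, a unit read from their range; how the authors corrected, summarized and normalized them was not stated in the labels (not given in the sources used here).

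Kept were probe sets with 1 gene symbol whose 4-array mean reached 4.70, the median of all values, and a gene was represented by its brightest probe set (13156 genes). The difference between IP and lysate came from limma 3.58.1 (R 4.3.3; functions lmFit and eBayes, no covariate), with Benjamini-Hochberg adjustment over all genes, and again over 54613 probe sets without a filter. The fit was tested on simulated data. Members and lists were chosen with earlier results of these data known. Named with values are the 8 largest falls of each subunit, members not called lower, the MRPS18 paralogs and, in each factor list, the largest changes and all higher genes; the lower assembly genes were added after their values were seen. Alternatives covered scale, filter, probe set, replicate block, spread, threshold and left-out arrays. Figures were drawn with matplotlib 3.10.9.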

Additional observations from a re-analysis of the deposited data

How the results depend on the processing

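The members' lower calls numbered 52 to 58 under every alternative that kept all 75 genes except the 0.01 threshold (49) and hybridization control centring (69), and 52 to 57 with 1 array left out. With unique probe sets only, 41 members remained testable, and 29 were lower, 21 large and 8 small; their medians were -0.75 (all), -1.01 (large) and -0.32 (small), and large minus small was -0.69. The higher members numbered 0 with hybridization control centring, 5 with trended, robust spread, and 1 with no level filter, with the 0.01 threshold and with any array left out. Medians with hybridization control centring were -1.33 (all), -1.53 (large) and -1.10 (small). The large subunit median was -1.03 with median centring and -1.02 with the mean of probe sets. With 1 array left out, the medians ranged from -0.92 to -0.83 (all), -1.08 to -1.06 (large) and -0.69 to -0.55 (small), and large minus small from -0.52 to -0.38.

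For single genes, hybridization control centring reversed MRPS28 (-0.29), MRPS34 (-0.25), MRPL4 (-0.24), MRPS7 (-0.23), DAP3 (-0.16), GFM1 (-0.040), MTIF3 (-0.025) and MTG1 (-0.030). MRPS18A reversed to 0.29 with the mean of its probe sets, 0.64 with its unique probe set and 0.033 without lysate replicate 2, and MRPS26 to 0.22 with the mean of its probe sets. Beyond these, the cause of the moves was not tested.

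For probe set agreement, unique probe sets left 8 genes, 5 with all changes below 0, 3 mixed, 4 with every call lower and 0 with every call higher. Hybridization control centring gave 2 mixed genes, 23 with every call lower and 0 with every call higher. With 1 array left out, genes with every call lower numbered 5 to 9, genes with every call higher 0 to 1, genes with mixed signs 8 to 11, and genes with all changes below 0 25 to 28.

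The labels do not say whether a lysate and an IP with the same replicate number belong together. Deviations of same-numbered arrays correlated at 0.10 over all genes, which with 2 arrays per group cannot settle the pairing. With the replicate number as a block 57 members were lower and 2 higher, as without it.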
